A study of Mus musculus with 2 samples.

Results

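Meiotic strand exchange and crossover formation were followed here through 9 genes, Dmc1, Meiob, Spata22, Hfm1, Msh4, Msh5, Rnf212, Ccnb1ip1 and Mlh3, out of 21887 protein-coding genes on mouse chromosomes 1 to 19, X and Y. The genes were picked by name for their known function when earlier results of these data were known, and the rule itself uses no measured value. For each one, the accessible sites in its RefSeq gene model and within 50 kb of it were taken where the peaks of both libraries overlapped by at least 1 bp, and such a pair of peaks is called a shared region below. Chromatin accessibility was measured by ATAC-seq, in which the Tn5 transposase cuts and tags open DNA. The cells were mouse GSCs, as the labels abbreviate them, with the genotype Stag3 KO, from the reporter line Acrosin-EGFP; beta-Actin-EGFP (AAG). They were sorted as viable reporter-positive cells, and 50000 cells entered each reaction. There was 1 group of 2 libraries, numbered replicate 1 and replicate 2, and the wild-type cells that the design text names were not analysed here. No value below is therefore a difference made by the knockout. Whether they were made from separate cultures is not given in the labels, and the spread of the 2 values at a site may be technical.

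In meiosis, programmed DNA breaks are resected to single strands, which a recombinase uses to search for and invade the homologous chromosome. DMC1 is the recombinase used only in meiosis, and MEIOB with SPATA22 forms a complex that binds single-stranded DNA alongside it. A subset of the joint molecules is then protected by the helicase HFM1 and by the MSH4–MSH5 clamp, chosen with the help of the RING proteins RNF212 and CCNB1IP1 (also called HEI10), and cut into crossovers by a nuclease that holds MLH3. These proteins act in spermatocytes, whereas spermatogonia, which divide by mitosis, precede that stage.

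All 9 genes had a shared region at a start site, against 66.1% of all protein-coding genes (14473 of 21887). A start site was the RefSeq transcription start of 8 genes with 1000 bp on each side. Meiob had no entry in the table of starts used, and the same window was placed at both ends of its gene model. None of the start-site regions of these genes touched the start-site window of another gene, coding or noncoding. In 8 of 9 genes the region was above the median fold enrichment of all peaks in each library, against 52.2% of all protein-coding genes. Genes without a region count against that share, and of the 14473 genes with one, 11423 were above. Fold enrichment is the pile of sequenced tags at the summit of a peak over the local background, as the authors' peak caller gave it, and the library medians were 8.78 in replicate 1 and 8.73 in replicate 2. In bulk samples, a site open in fewer cells and a site less open in each cell cannot be told apart.

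The promoters of 8 of these genes are in the RefSeq table of GRCm38.p6, each as 250 bases before and 50 bases after the start, and 6 are printed here because they carry the contrasts described below. Mlh3 had the strongest start-site region and Ccnb1ip1 the weakest, Hfm1 had the most CpG sites, and Spata22, Msh5 and Rnf212 held the same 8-letter motif. Capitals mark matches to the motifs named in the next paragraph. The windows are chr11:73329491-73329790 (plus strand) for Spata22, chr5:106925841-106926140 (minus strand) for Hfm1, chr17:35046573-35046872 (minus strand) for Msh5, chr5:108774978-108775277 (minus strand) for Rnf212, chr14:50795679-50795978 (minus strand) for Ccnb1ip1 and chr12:85270550-85270849 (minus strand) for Mlh3.
Spata22: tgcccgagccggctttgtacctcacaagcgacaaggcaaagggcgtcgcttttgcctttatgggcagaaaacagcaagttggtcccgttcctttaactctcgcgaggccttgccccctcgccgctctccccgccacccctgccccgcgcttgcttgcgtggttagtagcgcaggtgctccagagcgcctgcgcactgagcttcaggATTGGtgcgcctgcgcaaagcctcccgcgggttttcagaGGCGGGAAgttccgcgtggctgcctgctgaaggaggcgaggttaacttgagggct
Hfm1: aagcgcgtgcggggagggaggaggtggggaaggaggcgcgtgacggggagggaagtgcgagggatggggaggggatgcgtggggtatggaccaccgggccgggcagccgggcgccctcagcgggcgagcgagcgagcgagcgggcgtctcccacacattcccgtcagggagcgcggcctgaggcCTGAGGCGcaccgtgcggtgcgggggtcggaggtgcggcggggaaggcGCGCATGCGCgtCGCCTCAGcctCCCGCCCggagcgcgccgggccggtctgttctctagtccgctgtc
Msh5: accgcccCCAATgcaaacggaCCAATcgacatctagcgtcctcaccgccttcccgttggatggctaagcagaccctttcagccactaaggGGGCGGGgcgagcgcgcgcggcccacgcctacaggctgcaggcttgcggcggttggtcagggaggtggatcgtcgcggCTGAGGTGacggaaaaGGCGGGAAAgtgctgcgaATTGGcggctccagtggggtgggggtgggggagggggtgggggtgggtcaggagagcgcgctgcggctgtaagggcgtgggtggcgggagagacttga
Rnf212: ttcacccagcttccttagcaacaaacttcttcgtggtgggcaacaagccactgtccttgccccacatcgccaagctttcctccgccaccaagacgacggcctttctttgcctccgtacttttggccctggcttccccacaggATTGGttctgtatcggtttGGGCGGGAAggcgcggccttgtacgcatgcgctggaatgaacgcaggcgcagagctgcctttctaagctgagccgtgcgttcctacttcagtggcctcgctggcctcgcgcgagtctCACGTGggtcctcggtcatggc
Ccnb1ip1: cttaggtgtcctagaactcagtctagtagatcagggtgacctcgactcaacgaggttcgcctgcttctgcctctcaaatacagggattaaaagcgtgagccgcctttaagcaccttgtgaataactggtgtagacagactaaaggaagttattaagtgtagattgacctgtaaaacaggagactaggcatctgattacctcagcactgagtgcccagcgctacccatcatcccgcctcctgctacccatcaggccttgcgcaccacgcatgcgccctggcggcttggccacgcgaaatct
Mlh3: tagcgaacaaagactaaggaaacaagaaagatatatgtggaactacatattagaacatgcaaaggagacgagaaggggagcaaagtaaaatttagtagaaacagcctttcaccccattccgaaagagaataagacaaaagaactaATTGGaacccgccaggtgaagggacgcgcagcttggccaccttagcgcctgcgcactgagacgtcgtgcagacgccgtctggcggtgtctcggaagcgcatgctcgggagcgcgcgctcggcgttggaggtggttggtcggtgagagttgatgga

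Exact matches were sought on both strands to the E-box CACGTG, the cyclic AMP response element TGACGTCA, NF-Y (CCAAT), the palindrome of NRF1, E2F (TTCCCGCC and TTTCCCGC), ETS (CCGGAAG), MYB (GGCAGTT), YY1 (AAGATGGCG), SP/KLF (GGGCGGG), STRA8 (CNCCTCAG), DMRT1 (ACANTGT) and the core motif of CTCF. The E2F spelling TTCCCGCC was found in 3 of 8 genes, Msh5, Rnf212 and Spata22, and in 2.85% of 21263 promoters of protein-coding genes. In all 3 it read GGCGGGAA on the sense strand, beginning 66 bases before the start in Msh5, 88 in Rnf212 and 5 in Spata22. The match in Rnf212 overlapped one to SP/KLF, and that in Msh5 overlapped one to TTTCCCGC, a spelling held by 1 of 8 genes and 1.41% of promoters. CCAAT was in 4 of 8 genes, Mlh3, Msh5, Rnf212 and Spata22, and in 38.2% of promoters, and GGGCGGG was in 4 of 8, Dmc1, Hfm1, Msh5 and Rnf212, and in 33.9% of promoters. The STRA8 letters were in Hfm1 and Msh5, 2 of 8 genes, and in 8.52% of promoters. The NRF1 palindrome was in Hfm1 alone of the 8 and in 1.33% of promoters, and CACGTG was in Rnf212 alone and in 7.84%. The letters for the cyclic AMP response element, ETS, MYB, YY1, DMRT1 and CTCF were in 0 of 8 windows and in 2.23%, 11.6%, 3.94%, 1.83%, 6.26% and 0.0470% of promoters. A match is a string of letters in a window and shows no binding. The shares are over all promoters, whatever their CpG content, and a gene such as Mlh3 can have more than 1 promoter.

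Most of these promoters were rich in CpG, the dinucleotide that marks the starts of many widely used genes. Hfm1 had 41 CpG sites in 300 bases, Msh5 had 27, Spata22 had 25, Rnf212 and Mlh3 had 22 each, Dmc1 had 18, Ccnb1ip1 had 13 and Msh4 had 6, and the median of 17492 protein-coding genes was 13. Of all genes with 20 or more CpG sites, 96.6% had a shared start-site region, and of those with 10 to 19 it was 92.8%. With 5 to 9 sites it was 54.5%, and with 4 or fewer 13.7%. A start-site region was thus the usual state for genes with promoters like 7 of these 8. The peaks of both libraries covered all 300 bases in Dmc1, Hfm1, Rnf212 and Spata22. They covered 272 and 300 bases in Msh5, 300 and 211 in Mlh3 and 198 and 203 in Ccnb1ip1, in replicates 1 and 2. They covered 0 bases in Msh4.

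**Figure D1:**
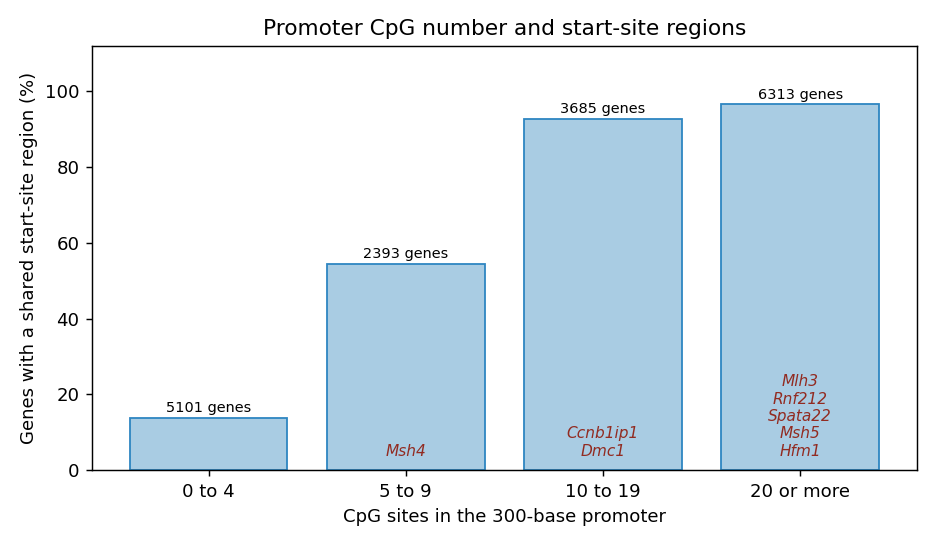
Share of protein-coding genes with a shared start-site region (bars, percent) by the number of CpG sites in the RefSeq promoter of 300 bases, with the number of genes above each bar and the 8 strand exchange and crossover genes named inside their class. Of the 8, 5 stand in the class with the highest share, 96.6%, and Msh4, whose peaks lay outside this promoter window, stands in the class at 54.5%.

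Dmc1 lies on chromosome 15 at 79561497 to 79605159 of GRCm38, on the minus strand. Its start-site region, at 79604975 to 79605869, had 15.5-fold enrichment in replicate 1, against 20.8-fold in replicate 2, a mean of 18.2 ± 3.79 (SD, n = 2). The summits held 90 and 129 tags and lay 114 and 163 bp upstream of the start. Replicate 1 was the lower library, with 0.698 times the tags of replicate 2 (95% exact interval 0.527 to 0.920, counting error only). Over the start-site regions of all protein-coding genes the median of this ratio was 0.900, which lies inside the interval. Dmc1 had the widest spread of fold among the 9 start-site regions. Its gene model held no other shared region. Upstream, 2 regions stood about 12 and 15 kb from the start, at 79617108 to 79617463 with 22.4-fold and 19.6-fold and at 79619753 to 79620103 with 12.6-fold and 14.8-fold. The nearer one was higher than the start site itself in replicate 1 and lower in replicate 2.

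Meiob and Spata22, whose proteins work as one complex, had start-site regions of different size. Meiob lies on chromosome 17 at 24804301 to 24839788, and its region at the lower-coordinate end, 24803949 to 24804451, had 18.4-fold and 18.6-fold enrichment, a mean of 18.5 ± 0.131 (SD, n = 2). The summits held 138 and 129 tags, and this was the smallest spread of fold among the 9 genes. A second, weak region stood in the same window at 24804793 to 24805008 with 3.68-fold and 4.17-fold, and one more stood inside the model at 24806274 to 24806584 with 8.68-fold and 7.91-fold. Deeper in the model, a region at 24823488 to 24823842 had 16.3-fold and 11.5-fold.

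Spata22 lies on chromosome 11 at 73326560 to 73346592, on the plus strand. The region at its start, 73329390 to 73329980, had 14.5-fold and 12.8-fold enrichment, a mean of 13.6 ± 1.21 (SD, n = 2), on 52 and 47 tags. Both values were below those of Meiob. It was the strongest of the 6 shared regions in the window of Spata22, where the rest had mean folds of 5.39 to 10.4. One of them lay within the model near its far end, at 73345712 to 73346072, with 12.5-fold and 7.04-fold.

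Hfm1, a helicase gene, lies on chromosome 5 at 106840193 to 106926712, on the minus strand, and is the longest of the 9. At its start, the region at 106925595 to 106926584 had 17.1-fold and 19.6-fold enrichment, a mean of 18.3 ± 1.82 (SD, n = 2), with 159 and 147 tags and summits 4 and 1 bp upstream of the start. This was the widest and most exactly centred of the start-site regions. Within the gene, a region at 106875908 to 106876264 had 25.4-fold and 16.0-fold on 80 and 49 tags, and another at 106885689 to 106885995 had 7.21-fold and 6.08-fold. Both stood over local backgrounds of 2.19 and 2.13 tags in replicates 1 and 2, against 8.38 and 6.54 at the start site. Beyond the 3′ end stood 8 more regions within 50 kb, the most of any gene here. The strongest, at 106795717 to 106796487, had 25.4-fold and 29.5-fold, and another at 106819295 to 106819805 had 21.7-fold and 25.4-fold. A pair near an end of the noncoding gene Gm33327 had lower values, with mean folds of 14.9 and 7.64.

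Msh4 and Msh5 encode the partners in one clamp and differed in the place and size of their open sites. Msh4 lies on chromosome 3 at 153857141 to 153906138, on the minus strand. Its region, at 153905460 to 153906421, had 11.8-fold and 13.4-fold enrichment, a mean of 12.6 ± 1.13 (SD, n = 2), on 98 and 97 tags. It covered the higher-coordinate end of the gene model, and its summits lay 1063 and 1135 bp upstream of the RefSeq start at 153904891. With a window of 500 bp around the start, Msh4 had no start-site region. Its promoter window, poor in CpG, lay outside the peaks of both libraries. The model held no other shared region, and beyond the 3′ end a region at 153835663 to 153836025 had 17.4-fold and 22.7-fold.

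Msh5 lies on chromosome 17 at 35028605 to 35046997, on the minus strand, among many short genes: 14 other protein-coding genes reached into its window of 50 kb on each side. Its start-site region, at 35046558 to 35047106, had 19.8-fold and 17.9-fold enrichment, a mean of 18.8 ± 1.32 (SD, n = 2). The summits held 378 and 414 tags, the most of the 9 genes, over local backgrounds of 18.2 and 22.2 tags that were also the highest of the 9. In tags the Msh5 start site stood above all others, while in fold it stood beside Meiob, Hfm1 and Dmc1. Of the 15 shared regions in its window, 8 lay at the start of another protein-coding gene, the strongest being that of Abhd16a with 24.1-fold and 25.7-fold. The model held no shared region beyond the start site.

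Rnf212 and Ccnb1ip1, the genes of the RING proteins, were far apart in fold. Rnf212 lies on chromosome 5 at 108728105 to 108775067, on the minus strand. The start-site region of Rnf212, at 108774638 to 108775464, had 16.8-fold and 17.5-fold enrichment, a mean of 17.2 ± 0.493 (SD, n = 2), on 96 and 93 tags. It was the strongest of the 8 shared regions in its window. Within the gene, a region at 108768564 to 108768900 had 11.0-fold and 6.40-fold and one at 108743886 to 108744337 had 5.33-fold and 6.40-fold.

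Ccnb1ip1 lies on chromosome 14 at 50789249 to 50795728, on the minus strand, and is the shortest of the 9. The start of Ccnb1ip1 had a region at 50795369 to 50795881 with 9.57-fold and 8.23-fold enrichment, a mean of 8.90 ± 0.945 (SD, n = 2), on 30 and 26 tags. It was the weakest of the 9 in both libraries, just above the library median in replicate 1 and below it in replicate 2. The replicate 1 peak spanned 508 bp and the replicate 2 peak 251 bp, so the region was no longer shared when each peak had to be covered by at least 50%. The coding neighbours Parp2, with 18.3-fold and 19.03-fold, and Ttc5, with 11.95-fold and 12.0-fold, had stronger regions at their starts. That of Parp2 also lay at an end of the noncoding gene Rpph1.

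Mlh3, which encodes a subunit of the crossover nuclease, lies on chromosome 12 at 85234466 to 85270647, on the minus strand, with 2 RefSeq starts in the table. Its start-site region, at 85270262 to 85270897, had 22.7-fold and 27.4-fold enrichment, a mean of 25.0 ± 3.32 (SD, n = 2), on 132 and 171 tags. Replicate 1 had 0.772 times the tags of replicate 2 (95% exact interval 0.610 to 0.974). That interval also holds 0.900, the median ratio over the start-site regions of all protein-coding genes. A second strong region lay inside the gene at 85243264 to 85243701, with 24.6-fold and 30.3-fold on 111 and 158 tags. The strongest start regions of the neighbours Acyp1, with 30.2-fold and 32.7-fold, and Eif2b2, with 30.7-fold and 31.6-fold, were higher still. Further regions at starts of both Acyp1 and Zc2hc1c had mean folds of 8.36 and 22.5, below that of Mlh3.

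**Figure D2:**
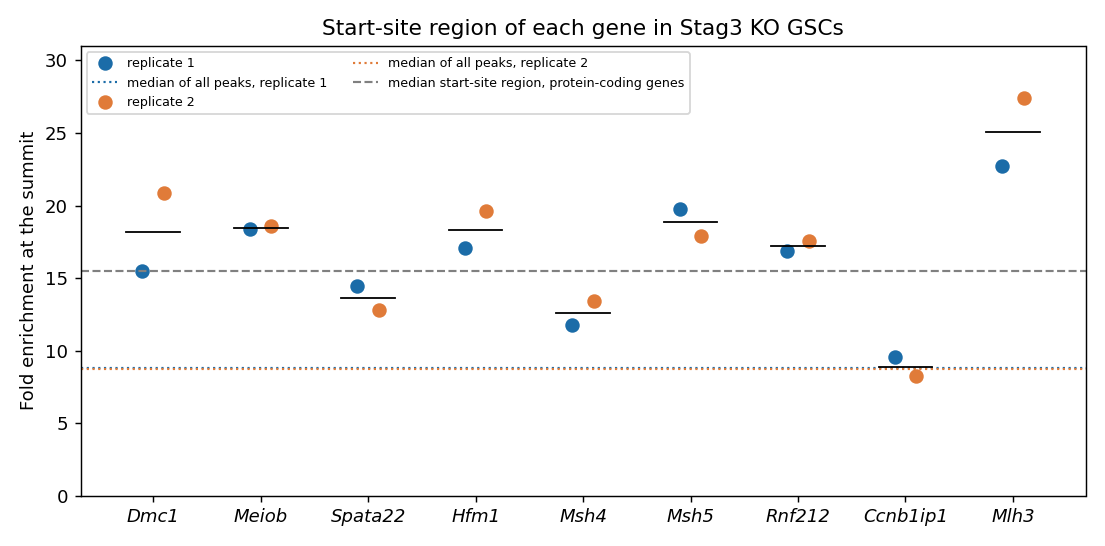
Fold enrichment at the summit of the start-site region (vertical axis) of each of the 9 genes, ordered by role along the horizontal axis, in replicate 1 (blue) and replicate 2 (orange), with the mean as a black line. Dotted lines mark the median of all peaks in each library and the dashed line the median start-site region of protein-coding genes, 15.5, and Mlh3 stands above all the other genes and Ccnb1ip1 below them.

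Read as ranges of the 2 libraries, the start sites were listed in 4 steps of fold. The steps describe these values and do not test a difference between genes. Mlh3, at 22.7 and 27.4, overlapped no other gene. Below it came Msh5, Meiob, Hfm1, Dmc1 and Rnf212, with means of 18.8, 18.5, 18.3, 18.2 and 17.2. Among these genes each range overlapped that of the next, so no neighbours in this order differed beyond their spread. Spata22 and Msh4, with means of 13.6 and 12.6, overlapped each other and none of the genes above. The gap was small, with 14.5-fold at Spata22 and 15.5-fold at Dmc1 in replicate 1, on 52 and 90 tags. Ccnb1ip1, at 9.57 and 8.23, overlapped none. Fold is relative to the local background, which ranged from 2.24 tags at Ccnb1ip1 to 18.2 tags at Msh5 in replicate 1, so the order by tags was another one, with Msh5 first, then Hfm1, Mlh3 and Meiob, then Dmc1, Msh4 and Rnf212, then Spata22 and Ccnb1ip1.

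Set against all genes with a start-site region, the 9 were spread over much of the range. Their median fold was 18.2, against 15.5 over 14473 protein-coding genes, and 6 of 9 were above that second median. By mean fold, 86.1% of those genes stood below Mlh3 and 17.3% below Ccnb1ip1.

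The 9 windows held 83 shared regions, from 5 at Ccnb1ip1 to 15 at Msh5, with a median of 9 per gene, against 7 over all protein-coding genes. No region was counted for more than 1 gene. Of the 83, 10 lay at a start site of these genes, 22 at the start of another protein-coding gene and 51 elsewhere. Only Spata22 and Rnf212 had their start site as the strongest region of the window, and in the other 7 at least 1 region was stronger by mean fold. Outside the start-site window, 5 of 9 gene models held a shared region (Meiob, Hfm1 and Rnf212 with 2 each, Spata22 and Mlh3 with 1 each), against 42.4% of all protein-coding genes. Gene length bears on this count: among genes within 1.5 times the length of each, the share with such a region was 21.6% for Ccnb1ip1 and 81.7% for Hfm1. It was 62.7% for Dmc1, 55.9% for Meiob, 42.5% for Spata22, 66.0% for Msh4, 40.6% for Msh5, 64.7% for Rnf212 and 56.5% for Mlh3. The count of 5 of 9 was near these shares.

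**Figure D3:**
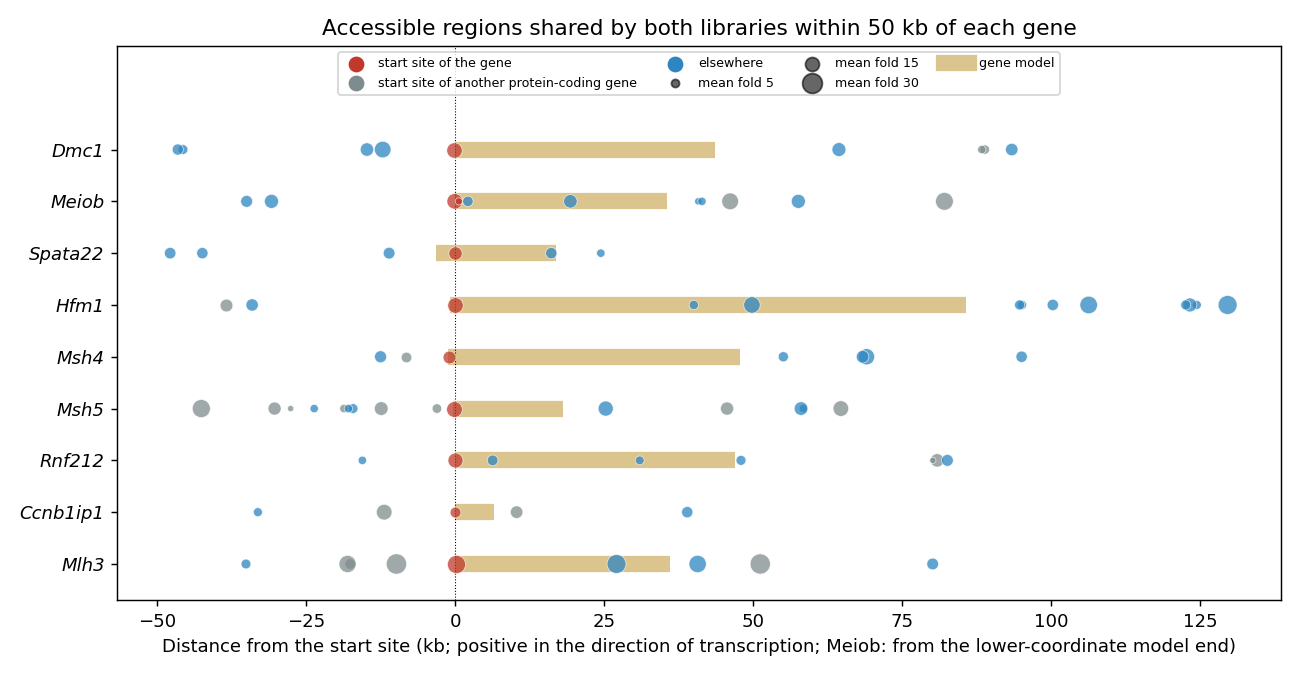
Shared regions (circles, with area by mean fold) by distance in kb from the start site of each of the 9 genes, with the gene model as a bar. Positive distances run in the direction of transcription, and for Meiob they run from the lower-coordinate end of its model. Red circles are regions at the start site of the gene, grey ones at the start of another protein-coding gene and blue ones elsewhere, and Dmc1, Msh4, Msh5 and Ccnb1ip1 have no region in the model beyond the start site.

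The kinds of region differed in their local background. The 51 regions elsewhere had a median of 54 and 43 tags in replicates 1 and 2, and in 19 of them the background stood at the floor that the caller used for the whole library, 2.19 and 2.13 tags. None of the regions at the starts of these genes or of others had that floor in both libraries. The 19 made up 37.3% of the 51, against 32.0% of all shared regions away from the starts of protein-coding genes. Over all shared regions, 25.3% were at the floor, and over start-site regions of protein-coding genes it was 2.95%. Tags differed by more than 2-fold between the libraries in 5 of 83 regions, against 8.07% of all shared regions. All 5 were among the 51 elsewhere, a share of 9.80%, against 9.13% of all shared regions away from the starts of protein-coding genes and 4.53% of those at such starts, so these genes stood near the background. The 5 were in the windows of Ccnb1ip1 (44 and 16 tags), Meiob (81 and 31), Dmc1 (77 and 33), Msh5 (245 and 116) and Msh4 (28 and 85), and the first 4 were higher in replicate 1 and that of Msh4 was higher in replicate 2. These 5 were singled out after their values were seen. At the start sites of the 9 genes no pair differed by more than 1.5 times, and the ratio of replicate 1 to replicate 2 had a median of 1.02, against 0.900 over all start-site regions.

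**Figure D4:**
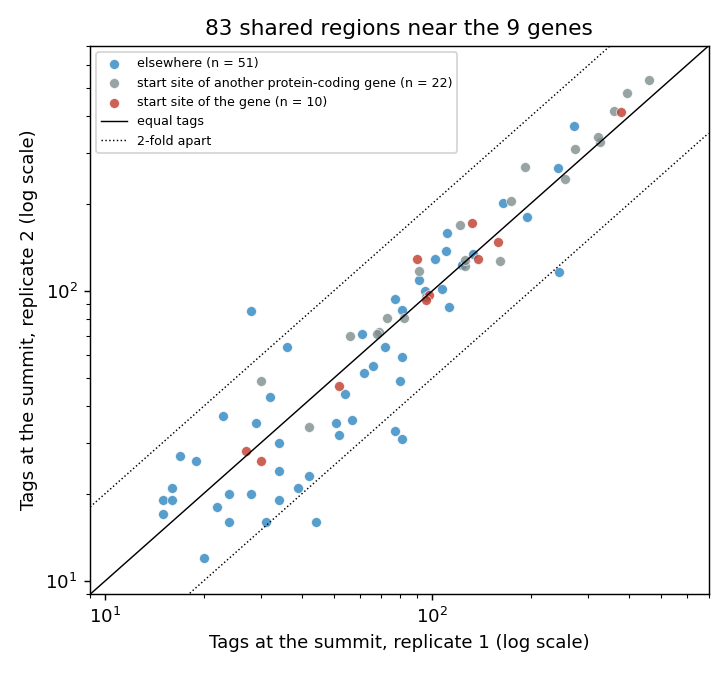
Tags at the summit in replicate 1 (horizontal, log scale) and replicate 2 (vertical, log scale) for the 83 shared regions near the 9 genes. The solid line marks equal tags and the dotted lines a difference of 2-fold. The start-site regions (red) lie along the solid line, and the 5 regions beyond the dotted lines are all of the kind that lies elsewhere (blue).

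Other genes of the recombination pathway were mostly open at their starts too. Of 40 further genes listed, 38 matched the RefSeq table (Spo16 and Firrm did not), and 35 of 38 had a shared start-site region, against the 66.1% of all genes. Their median fold was 20.7. Whether their start-site regions also lay at the start of another gene was not examined. The highest were Rad54l, a DNA translocase gene of homologous recombination, with 32.7-fold and 36.1-fold, Cntd1, a cyclin-like gene needed for crossover maturation in mice, with 32.0-fold and 36.2-fold, and Tex11, a crossover gene of the X chromosome, with 29.2-fold and 29.6-fold. Among the lowest were Tex15 with 10.8-fold and 9.24-fold, and Hrob with 12.9-fold and 8.00-fold. Tex11, Tex15 and Hrob were missing from the table of starts, and their values come from both ends of the gene models. Hsf2bp, Shoc1 and Slx4 had no shared start-site region. This depended on the window: with 2500 bp on each side, 37 of the 38 genes had one, against 70.3% of all genes.

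The genes that act just before and beside strand exchange were alike in share. Of the 9 genes of break formation, 9 had a shared start-site region, against 66.1% of all genes, with a median fold of 17.0, against 15.5 over all genes with a region. They ran from Mei4 (29.1-fold and 30.7-fold), Prdm9 (25.8 and 30.8) and Iho1 (28.3 and 25.5) at the top to Spo11 (15.5 and 14.3), Ankrd31 (13.1 and 16.1) and Zcwpw1 (11.7 and 12.4). Of the 8 genes of the synaptonemal complex, 8 had one, with a median fold of 15.6, close to the 15.5 of all genes. The value of Spo11 comes from both ends of its gene model. Syce3 (27.6 and 31.8), Sycp2 (18.9 and 22.97) and Syce1 (17.96 and 21.9) were highest, and Sycp3 (10.4 and 15.9), Syce2 (9.94 and 12.0) and Tex12 (11.9 and 7.36) lowest. Differences between these lists were not tested. For the genes of break formation and the synaptonemal complex, regions that also lay at another gene's start were not set apart.

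**Figure D5:**
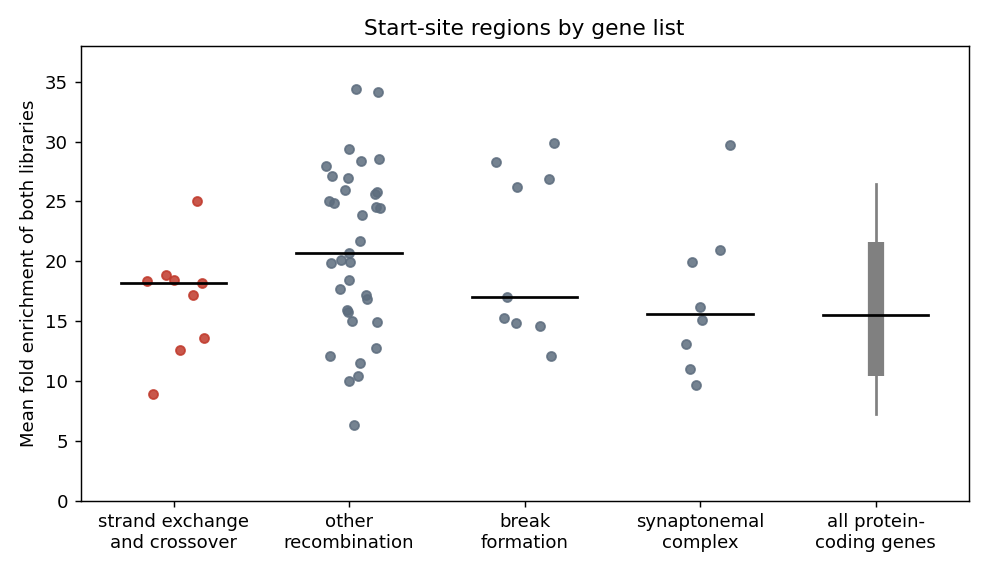
Mean fold enrichment of both libraries at the start-site region (vertical axis) for each gene of the 4 lists (points), with the median of each list as a black line. For all protein-coding genes the thick bar spans the quartiles, 10.4 to 21.6, the thin line the 10th to 90th percentile and the black line the median, 15.5, and the 9 strand exchange and crossover genes spread from 8.90 to 25.0.

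The libraries and their cells were checked on a few counts. Replicate 1 held 107331 peaks and replicate 2 held 98986, with medians of 40 and 41 tags at the summit. Near the 9 genes 83 of 96 peaks in replicate 1 and 84 of 88 in replicate 2 overlapped a peak of the other library, against 78.0% and 84.9% of all peaks. Stag3 had a region at its start, chromosome 5 at 138279871 to 138280704, with 19.9-fold and 18.8-fold enrichment. The deleted part of Stag3 is not given in the labels and the region also lay at the start of Gpc2, so this does not check the knockout. A shared start-site region, present at 66.1% of all protein-coding genes, was found at 13 of 13 genes of spermatogonia and 0 of 4 of spermatids. The median fold of the 13 was 10.8, against 15.5 over all genes with such a region. Above the median of each library were 6 of 13, against 52.2% of all genes and 11423 of the 14473 genes with a region. The lowest were Nanos2 with a mean fold of 3.44 and Lin28a with 4.43, and the highest was Id4 with 22.2. Among genes of other cells, a region was found at 3 of 5 of Sertoli cells, 1 of 4 of Leydig cells, 2 of 5 of fibroblasts and feeders, 2 of 4 of blood and 2 of 4 of endothelium. The blood genes with a region, Spi1 at a mean fold of 21.3 and Csf1r at 20.8, were above most of the spermatogonial genes. Both values come from the ends of the gene models. So do those of Sox9, Amh and Wt1 of Sertoli cells, Cyp17a1 of Leydig cells, Col1a1 of fibroblasts and Ret, Zbtb16, Bcl6b and Sall4 of spermatogonia. The part of other cells in the regions above was not tested.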

How the data were processed

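ATAC-seq was measured in 2 libraries of Stag3 KO GSCs. The submitters' processing notes list the builds mm10 and GRCm38.p3, the peak caller MACS2 2.1.1, the aligner Bowtie2 2.3.4.1, Trim Galore, deepTools 3.5.0, bedtools 2.29.2 and Picard 2.18.23. How each was set, and whether reads were shifted for the Tn5 cut, is not given in the sources used here, and these choices decide which sites are called and where summits fall. The deposited files were 1 peak list per library, not pooled. Each peak had a fold enrichment over local background, a ratio from the authors' peak caller, and a deposited −log10 p-value and −log10 q-value. The deposited score, 10 times the −log10 q cut to a whole number, was not used. Fold and its percentile describe peaks within a list.

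Read depth is unknown. The tag number at a summit was solved as the whole number that meets fold = (tags + 1) / (background + 1) and the Poisson p-value. A solution was found for 100% of the peaks of both libraries, with −log10 p matched to within 0.0001 plus a fraction of 1e-05 of its value, and the step was tested on simulated data. Ratios of tags carry 95% exact (Clopper-Pearson) intervals that cover counting error only.

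Peaks of replicate 1 were each paired with their most overlapping peak of replicate 2 (1 bp or more) to give the shared regions. Gene models and promoters are from RefSeq on GRCm38.p6, which has the chromosome coordinates of the build of the peaks. Of 21887 protein-coding genes, 17492 had a start in the promoter table, and both model ends stood in for the others. The same was done for noncoding genes without a start there. Such windows can hold a 3′ end or a neighbour's start. Exons and introns were not analysed here.

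With 1 group there was no contrast to test, and counts and medians are set beside those of all protein-coding genes. The genes, lists and motifs were chosen with earlier results of these data known. Named genes were all 9, the 3 highest and 3 lowest of each related list with every gene lacking a region, and neighbours with a start within 1000 bp of a described region. One gene that this names is not reported here. The settings also tried were peaks with −log10 q of at least 5 or 10, overlap of at least 50% of each peak, each library alone, windows of 500 and 2500 bp, both model ends, and flanks of 20 and 100 kb. Python 3.11.15, pandas 2.3.3, numpy 2.4.6, scipy 1.17.1 and matplotlib 3.10.9 were used.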

Additional observations from a re-analysis of the deposited data

How the results depend on the processing

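No paired analysis was possible because the series holds 1 group, so no groups share replicate numbers. The number of the 9 genes with a start-site region was 8 or 9 under every alternative run: Msh4 was lost with a window of 500 bp and Ccnb1ip1 when at least 50% of each peak had to overlap. With 1 library alone it was 9 in each. The number above the library medians was 7 to 9. The count of 83 regions moved to 46 with a flank of 20 kb and 152 with a flank of 100 kb. Under the other alternatives it was 70 to 96, with 96 in replicate 1 alone and 88 in replicate 2 alone. Regions in the gene models numbered 18, and 15 to 21 under the alternatives. Pathway genes with a start-site region numbered 35, and 34 to 37. Filters on peaks cannot change the fold of a peak that stays. With 1 library alone, each start-site fold was the value of that library in place of the mean. With both libraries kept, the start-site folds could move only where another region was taken. That happened for Spata22, which had 9.79 when both ends of its model were used, since its RefSeq start lies inside the model. With 26 to 30 tags at its start site, Ccnb1ip1 is the gene whose values depth limits most.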

Other observations

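Peaks called in 1 library alone were not used above. There were 13 in replicate 1 and 4 in replicate 2 near the 9 genes, with 11 to 37 tags and 13 to 18 tags, and none lay in a start-site window of these genes. The model of Dmc1, which held no shared region beyond its start site, had 2 such peaks in replicate 1, at 79565029 to 79565310 and at 79587978 to 79588267 on chromosome 15, each with 6.90-fold enrichment and 21 tags. Mlh3 had 1 in its model in replicate 1, at 85243852 to 85244078 on chromosome 12, with 4.69-fold enrichment and 20 tags, beside the strong shared region there.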
